A study of Mus musculus with 4 samples.

Results

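Matrix metalloproteinases (MMPs), their tissue inhibitors (TIMPs) and the urokinase system of plasminogen activation were followed through mouse mammary basal cells that were freshly sorted or grown into colonies. The 9 genes were taken by name: the proteases Mmp2, Mmp3, Mmp9 and Mmp14, the inhibitors Timp1, Timp2 and Timp3, the urokinase gene Plau and its receptor gene Plaur. All 9 were found among the 17630 genes listed for each library, so they are 9 of 17630 genes.

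MMPs are zinc proteases that cut collagens, laminins and other parts of the extracellular matrix, most of them made as inactive proenzymes. TIMPs bind and block active MMPs, and TIMP2 also bridges the proenzyme of MMP2 to MMP14 on the cell surface, where it is activated. Urokinase bound to its receptor turns plasminogen into plasmin, which cuts fibrin and matrix proteins and can activate several MMPs; in the mammary gland these enzymes are known for their part in duct branching and in the remodelling that follows lactation.

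The study asked how sympathetic nerves act on mammary basal cells, the outer epithelial layer that holds the mammary stem cells. Primary mammary basal cells of WT mice were sequenced in 4 groups, each with 1 library. Sorted basal cells came from control mice, whose label gives no treatment, and from mice given 6-OHDA (6-hydroxydopamine), a toxin that destroys sympathetic nerve endings. Basal cell colonies were grown in Matrigel, a basement membrane gel, without agonist (control colonies) or with salbutamol and phenylephrine (SP), agonists of the β2 and α1 adrenergic receptors. The title of the SP library carries the number 200 and that of its control the number 0, with no unit. Colony medium held epidermal growth factor, insulin, transferrin and selenium, so sorted and colony libraries differ in medium, matrix and time outside the animal at once. The age and strain of the mice behind these libraries and the number of animals pooled were not given in the sample labels. That the control library numbered 0 is a colony library was read from its title and the series design.

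Expression was deposited as FPKM, fragment counts divided by transcript length and by the number of fragments sequenced, so that levels of different genes can be set side by side. Differences were taken on log2(FPKM + 1), a scale that understates changes of low genes, for genes whose FPKM averaged 1 or more across the 2 libraries compared. A gene near 0 in 1 of these libraries passes this filter only through the other, so its call then follows from the filter. A gene was called higher or lower past 0.3 on this scale for the 6-OHDA and SP comparisons and past 1 for colonies against sorted cells. With 1 library per group there is no spread between replicates, no difference could be tested, and each value below compares 2 libraries. In such bulk samples, fewer cells of a type and less RNA per cell cannot be told apart.

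Markers of basal cells were present in all 4 libraries. Krt14, a basal keratin, was at 3595 FPKM in control sorted cells, 2633 in 6-OHDA sorted cells, 3298 in control colonies and 6920 in SP colonies, and Trp63, the p63 transcription factor gene, was between 42.8 and 80.9. The smooth muscle actin gene Acta2 was at 1949 and 2575 in the sorted cells but at 402 and 722 in the colonies. The luminal keratin gene Krt8 was also high, between 545 and 698 FPKM in all 4 libraries. The basal label therefore has its defining markers in each library, with luminal keratin transcripts beside them and a lower level of contractile genes in colonies.

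In control sorted cells the 9 genes covered a wide range of levels. Plaur was the most abundant at 265 FPKM, with 286 of 17630 genes above it, and Timp3 followed at 178. Mmp2 at 94.3, Mmp14 at 79.5, Timp2 at 77.8, Plau at 67.3 and Timp1 at 55.0 formed a middle group within a narrow band. Mmp3 at 5.34 and Mmp9 at 3.18 FPKM were far below the rest. The order was different in control colonies. There Timp3 led at 288 FPKM, Mmp14 was next at 140, then Plau at 122, and Plaur had dropped to the bottom beside Mmp9, at 8.23 against 7.99 FPKM. Which neighbours in these orders differ beyond the spread between libraries was not tested.

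**Figure D1:**
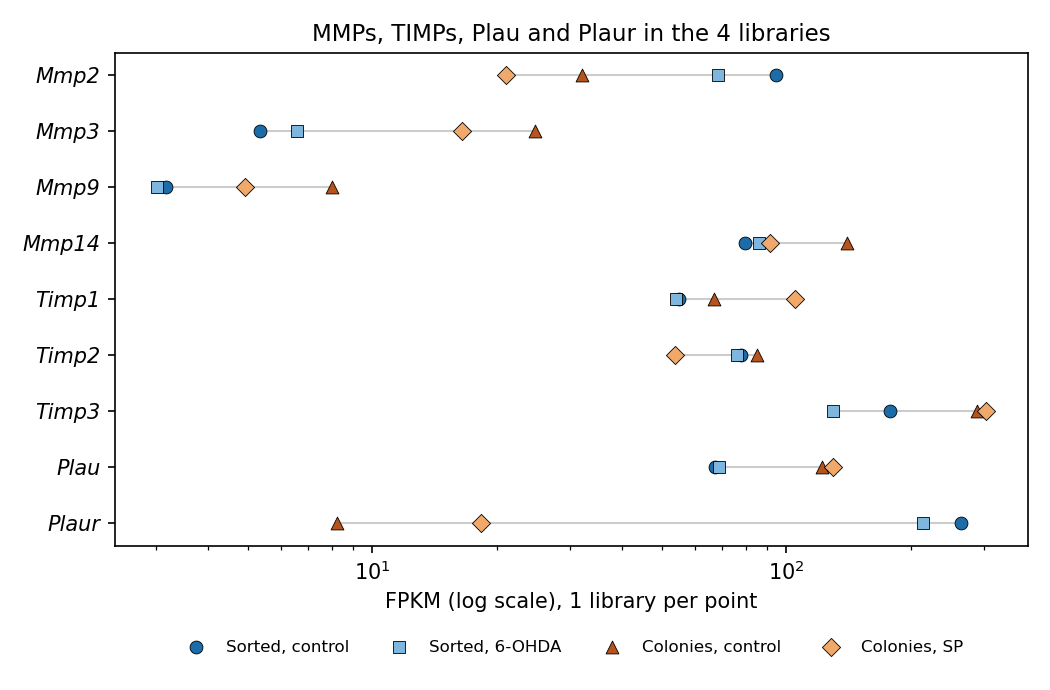
Levels of the 9 genes in FPKM (log axis), with 1 point per library: circles, control sorted cells; squares, 6-OHDA sorted cells; triangles, control colonies; diamonds, SP colonies. Plaur spans the widest range, from 8.23 FPKM in control colonies to 265 in control sorted cells, while the 2 sorted libraries lie close together for most genes.

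After 6-OHDA, 3 of the 9 genes were lower and 0 were higher in the sorted cells, where 8.35% of 11749 genes were lower and 15.8% were higher. The 3 were Mmp2, Timp3 and Plaur, 1 from each role. The other 6 stayed within 0.3, from -0.06 for Mmp9 to 0.25 for Mmp3. The median difference of the 9 genes was -0.03, against 0.06 over all genes compared.

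With SP, 5 of the 9 genes were lower and 2 were higher in the colonies, where 19.8% of 11849 genes were lower and 11.7% were higher. All 4 MMP genes and Timp2 made up the lower group, Timp1 and Plaur the higher one, and Timp3 and Plau lay within 0.3. The median of the 9 was -0.56, against -0.07 over all genes compared.

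Between control colonies and control sorted cells, 2 of the 9 genes were higher, Mmp3 and Mmp9, and 2 were lower, Mmp2 and Plaur. Over 12244 genes, 30.7% were higher and 13.2% were lower past the same threshold, so these counts alone do not set the 9 genes apart. The median over all genes was 0.45, a shift toward higher values in colonies that scaling by the median ratio takes away, and the median of the 9 genes was 0.69. The control sorted library enters both this comparison and that of 6-OHDA, and the control colony library enters both this comparison and that of SP. Their values are therefore given side by side and were not related to each other.

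**Figure D2:**
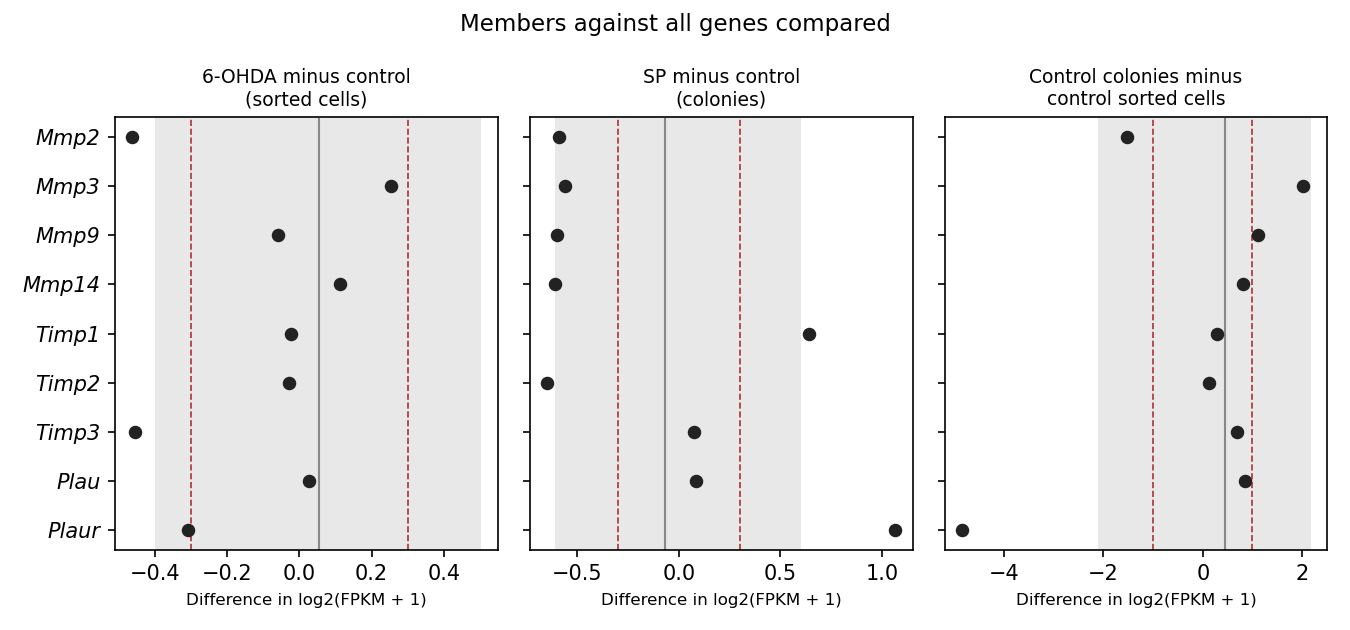
Difference in log2(FPKM + 1) of each of the 9 genes in the 3 comparisons. Grey bands run from the 5th to the 95th percentile of all genes compared, the grey line is their median and dashed lines mark the thresholds; the 4 MMP genes lie between -0.61 and -0.56 in the SP comparison with this pseudocount of 1 (between -0.59 and -0.39 with 5), and Plaur lies far below the band in colonies against sorted cells.

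Mmp2 encodes gelatinase A, which cuts denatured collagens and type IV collagen, and lies at chr8:92827290-92853421 (plus strand, GRCm38). It was at 94.3 FPKM in control sorted cells, 68.2 in 6-OHDA sorted cells, 32.2 in control colonies and 21.1 in SP colonies. The log2 differences were -0.46 after 6-OHDA, -0.59 with SP and -1.52 for colonies against sorted cells. Mmp2 was thus the only one of the 4 protease genes that was lower in all 3 comparisons, and it kept these directions under all 6 other pseudocounts and scalings. Among all genes compared, 435 of 11749 had a larger fall after 6-OHDA and 639 of 11849 had a larger fall with SP.

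Mmp14, at chr14:54431598-54442456 (plus strand), encodes MT1-MMP, the membrane-bound protease that activates MMP2. Its level was 79.5 FPKM in control sorted cells, 86.1 after 6-OHDA, 140 in control colonies and 91.5 in SP colonies. The differences were 0.11 after 6-OHDA, -0.61 with SP and 0.81 for colonies against sorted cells, which was 0.31 under median ratio scaling. Control colonies stood above the other libraries, and SP colonies were near the level of the sorted cells. Mmp14 was the most abundant MMP of these 4 in both colony libraries and in the 6-OHDA library, and Mmp2 was in the control sorted library.

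Mmp3, at chr9:7445822-7455975 (plus strand), encodes stromelysin 1, which cuts laminin, fibronectin and other MMP proenzymes. It was at 5.34 FPKM in control sorted cells, 6.56 after 6-OHDA, 24.7 in control colonies and 16.4 in SP colonies. The differences were 0.25, -0.56 and 2.02 for 6-OHDA, SP and colonies against sorted cells. Both colony libraries were above both sorted libraries, with the SP library the lower of the colonies.

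Mmp9 encodes gelatinase B and lies at chr2:164940326-164955850 (plus strand). Its values were 3.18 FPKM in control sorted cells, 3.01 after 6-OHDA, 7.99 in control colonies and 4.93 in SP colonies. The differences were -0.06, -0.60 and 1.10 in the same order. The pattern over the libraries was that of Mmp3 at a lower level, except that the 6-OHDA library was not above its control. The difference between colonies and sorted cells fell below the threshold of 1 under 3 alternatives, to 0.67 with a pseudocount of 5, 0.66 under median ratio scaling and 0.58 after quantile normalization, while the SP difference ran from -0.69 to -0.39 over the 6 other pseudocounts and scalings.

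Together the 4 MMP genes summed to 182 FPKM in control sorted cells, 164 after 6-OHDA, 205 in control colonies and 134 in SP colonies. The SP differences of the 4 genes ran from -0.61 to -0.56. This closeness depended on the processing: they ran from -0.59 for Mmp14 to -0.39 for Mmp9 with a pseudocount of 5, from -0.69 for Mmp9 to -0.58 for Mmp3 with 0.1, and from -0.64 for Mmp14 to -0.50 for Mmp3 after quantile normalization. Expressed as a fold of FPKM + 1, control colonies were 1.47-fold above SP colonies for Mmp3 and 1.53-fold above them for Mmp14, with Mmp2 and Mmp9 in between.

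Of 19 other MMP and TIMP genes listed, most were too low to compare. In the SP comparison 5 of 6 were lower and 0 were higher, with a median of -0.46 against -0.07 over all genes. Mmp13, a collagenase, was at 0.46 FPKM in control sorted cells, 1.60 after 6-OHDA, 39.3 in control colonies and 28.1 in SP colonies, so that it passed Mmp3 in the colonies. Its differences were 0.83, -0.47 and 4.79. Mmp11 (1.05, 0.76, 7.80 and 4.17 FPKM in the same order of libraries) and Mmp12 (0.15, 0.50, 3.99 and 1.97 FPKM) were also higher in control colonies than in sorted cells and lower with SP. Mmp15, a membrane-bound MMP, was at 4.09 and 4.29 FPKM in the sorted cells, 19.3 in control colonies and 14.0 in SP colonies. For colonies against sorted cells 5 of 8 of these genes were higher and 2 were lower, the latter being Mmp19 and Mmp17. Over all genes 30.7% were higher and 13.2% were lower in this comparison, 11.7% and 19.8% with SP, and 15.8% and 8.35% after 6-OHDA. Mmp10, Mmp12 and Mmp13 passed the filter only through the colonies, and Mmp19 and Mmp17 only through the sorted cells. The calls of these genes therefore follow from the filter. Mmp10 was at 0.08 FPKM in control sorted cells and 4.15 in control colonies. After 6-OHDA, 1 of 5 was higher, Mmp13, which passed the filter only through the 6-OHDA library. Mmp23 was lower, at 6.11 FPKM in the control and 4.39 in the 6-OHDA library.

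Timp1, at chrX:20870166-20874737 (plus strand), encodes a secreted inhibitor that binds the proenzyme of MMP9 as well as active MMPs. It was at 55.0 FPKM in control sorted cells, 54.0 after 6-OHDA, 67.0 in control colonies and 105 in SP colonies. The differences were -0.02 after 6-OHDA and 0.64 with SP, and 0.28 for colonies against sorted cells, which turned to -0.22 under median ratio scaling. The SP library stood above the other 3, which lay close to each other. Among all genes compared with SP, 540 of 11849 had a larger rise.

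Timp2, at chr11:118301061-118355411 (minus strand), encodes the inhibitor that also takes part in MMP2 activation. Its level was 77.8 FPKM in control sorted cells, 76.2 after 6-OHDA, 85.0 in control colonies and 53.9 in SP colonies. The differences were -0.03, -0.65 and 0.13, the last of which was -0.37 under median ratio scaling and -0.06 when the libraries were rescaled to the same sum. On the deposited values the SP library was the lowest, and the other 3 lay close to each other. Timp1 and Timp2 thus lay on opposite sides of their control in the SP colonies, with differences of nearly the same size.

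Timp3, at chr10:86300412-86349505 (plus strand), encodes the inhibitor that binds to the matrix and also blocks ADAM proteases. It was at 178 FPKM in control sorted cells, 130 after 6-OHDA, 288 in control colonies and 304 in SP colonies. The differences were -0.46, 0.08 and 0.69, of which the middle one was -0.05 after quantile normalization and the last 0.18 under median ratio scaling. Timp3 was the most abundant of the inhibitors in all 4 libraries, lowest in the 6-OHDA library and highest in the colonies. It overlaps Syn3, a gene on the opposite strand, over 1733 exonic bases, and whether the counting used strand was not given in the sources used here. Syn3 was at or below 0.75 FPKM in all 4 libraries.

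The 3 TIMP genes summed to 311 FPKM in control sorted cells, 260 after 6-OHDA, 440 in control colonies and 462 in SP colonies. Their sum was 1.71 times that of the 4 MMP genes in control sorted cells, 1.59 times after 6-OHDA, 2.15 times in control colonies and 3.45 times in SP colonies. On the deposited values the ratio was thus highest in the SP colonies, where the MMP sum was at its lowest and the TIMP sum at its highest. The TIMP sums of the 2 colony libraries were close, and the sums were not recomputed under other scalings. Timp3, the largest part of these sums, had an SP difference of -0.05 after quantile normalization. The ratio is one of transcript levels, and neither proteins nor enzyme activity were measured in these libraries. The genes of the MMP2 activation complex, Mmp14, Timp2 and Mmp2, were all lower with SP, at -0.61, -0.65 and -0.59. The level of Mmp14 over that of Timp2 was 1.02 in control sorted cells, 1.13 after 6-OHDA, 1.65 in control colonies and 1.70 in SP colonies, so this ratio separated colonies from sorted cells and was close in the 2 colony libraries.

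Plau, at chr14:20836662-20843388 (plus strand), encodes urokinase. It was at 67.3 FPKM in control sorted cells, 68.6 after 6-OHDA, 122 in control colonies and 129 in SP colonies. The differences were 0.03 after 6-OHDA, which was -0.03 under median ratio scaling, 0.09 with SP and 0.85 for colonies against sorted cells, which was 0.34 under median ratio scaling. Both colony libraries were above both sorted libraries, and the treated library lay next to its control in each setting.

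Plaur, at chr7:24460937-24475970 (plus strand), encodes the urokinase receptor, a membrane-anchored protein that holds urokinase at the cell surface. Its level was 265 FPKM in control sorted cells, 213 after 6-OHDA, 8.23 in control colonies and 18.3 in SP colonies. The differences were -0.31 after 6-OHDA, 1.07 with SP and -4.85 for colonies against sorted cells. Sorted cells were far above colonies: the FPKM + 1 of control sorted cells was 28.8-fold that of control colonies, and 54 of 12244 genes had a larger fall. With SP the level was 2.09-fold that of control colonies on the same scale, with 214 of 11849 genes showing a larger rise, and it remained well below both sorted libraries. The 6-OHDA difference lay just past the threshold, and it was -0.29, within the threshold, after quantile normalization and also after rescaling without the salivary gland genes described below.

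Receptor and ligand thus changed places between the settings. Plaur was 3.93 times Plau in control sorted cells and 3.11 times after 6-OHDA, whereas Plau was 14.8 times Plaur in control colonies and 7.06 times in SP colonies.

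Of the other plasminogen genes, Plat, which encodes tissue plasminogen activator, was at 122 FPKM in control sorted cells, 100.2 after 6-OHDA, 10.7 in control colonies and 10.4 in SP colonies. It was thus high in sorted cells and low in colonies, as Plaur was, with a difference of -3.39 for colonies against sorted cells. Serpine2, encoding protease nexin 1, had the opposite order, at 12.2 and 19.6 FPKM in the sorted cells, 117 in control colonies and 65.9 in SP colonies. Serpinb2, encoding the activator inhibitor PAI-2, was at 0.36 FPKM in control sorted cells, 9.63 after 6-OHDA, 13.2 in control colonies and 41.9 in SP colonies. It was higher in all 3 comparisons, by 2.97, 1.59 and 3.39. Against control sorted cells it passed the filter only through the 6-OHDA library or the control colonies. The direction of its calls after 6-OHDA and in colonies therefore follows from the filter. The plasminogen gene Plg was looked up but was not among the genes listed for the libraries.

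**Figure D3:**
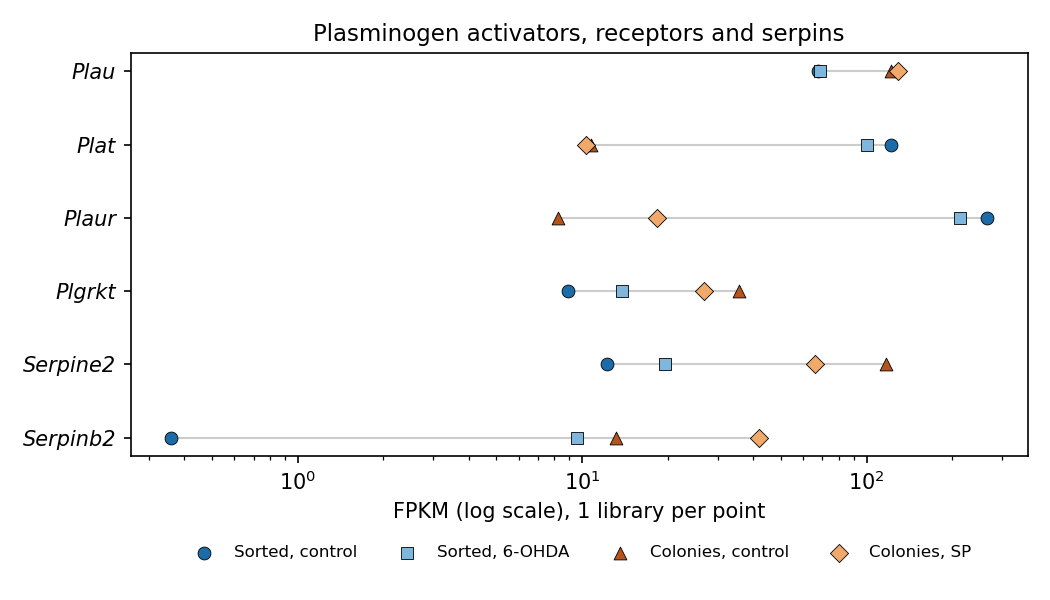
Levels of plasminogen activators (Plau, Plat), receptors (Plaur, Plgrkt) and activator inhibitors of the serpin family in FPKM (log axis), with 1 point per library: circles, control sorted cells; squares, 6-OHDA sorted cells; triangles, control colonies; diamonds, SP colonies. Plat and Plaur are high in sorted cells and low in colonies, and Serpine2 and Serpinb2 are lowest in control sorted cells.

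Several genes for proteins that bind plasminogen at the cell surface were also measured. S100a10 was at 976 FPKM in control sorted cells, 1035 after 6-OHDA, 501 in control colonies and 1012 in SP colonies, and its partner Anxa2 was at 550, 567, 682 and 1334 FPKM. Eno1, a glycolytic enzyme gene whose product also binds plasminogen, was at 180, 242, 538 and 1030 FPKM. All 3 were higher with SP, by 1.01, 0.97 and 0.94, whereas the less abundant receptor gene Plgrkt, at 35.5 FPKM in control colonies and 26.8 in SP colonies, was lower, with a difference of -0.40. Over 8 compared genes of the plasminogen system other than Plau and Plaur, 5 were higher and 2 lower with SP (median 0.67), 4 were higher and 0 lower after 6-OHDA (median 0.26), and 4 were higher and 2 lower in colonies against sorted cells (median 0.94). Over all genes 11.7% were higher and 19.8% lower with SP (median -0.07), and 15.8% and 8.35% after 6-OHDA (median 0.06). In colonies these shares were 30.7% and 13.2% (median 0.45). The higher genes counted here include Serpinb2, which passed the filter after 6-OHDA and in colonies only as described above. Neither this list nor those below were tested against these shares.

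Among 12 activators, inhibitors, cofactors and clearance receptors of MMPs, the thrombospondin gene Thbs1 was the most abundant in the sorted cells. It was at 1353 FPKM in control sorted cells, 1172 after 6-OHDA, 253 in control colonies and 260 in SP colonies. In both colony libraries Sdc1 and Bsg were above it. With SP, 2 of 9 compared were higher, Sdc1 (362 to 605 FPKM) and Bsg, which encodes the MMP inducer basigin (317 to 499 FPKM), and 3 were lower, among them Pcolce (5.61 to 2.17 FPKM); the median was 0.04. After 6-OHDA, 3 of 11 were higher and 1 was lower (median 0.07), with Thbs2 at 3.34 FPKM in the control and 8.75 in the 6-OHDA library. In colonies against sorted cells 1 of 11 was higher and 4 were lower (median -0.67), among them Reck, the gene of a membrane-bound MMP inhibitor, at 6.43 FPKM in control sorted cells and 1.29 in control colonies. Over all genes 11.7% were higher and 19.8% lower with SP, 15.8% and 8.35% after 6-OHDA, and 30.7% and 13.2% in colonies.

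Among ADAM and ADAMTS proteases, relatives of the MMPs, 9 of 21 were higher and 0 lower after 6-OHDA (median 0.12), 3 of 19 were higher and 6 lower with SP (median 0.00), and 4 of 20 were higher and 7 lower in colonies against sorted cells (median -0.48). Over all genes 15.8% were higher and 8.35% lower after 6-OHDA, 11.7% and 19.8% with SP, and 30.7% and 13.2% in colonies. Adamts1 fell from 349 FPKM in control sorted cells to 45.4 in control colonies, and Adamts4 from 122 to 9.22. Adam8 was at 7.25 FPKM in control colonies and 23.1 in SP colonies. Among 15 other matrix proteases the counts were 2 higher and 2 lower of 12 after 6-OHDA (median -0.04), 2 higher and 4 lower of 9 with SP (median -0.01), and 3 higher and 3 lower of 11 in colonies (median 0.09). The kallikrein gene Klk10 was at 3.04 FPKM in control colonies and 34.6 in SP colonies.

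Of 13 basement membrane and matrix substrates, 7 were lower and 1 was higher in colonies against sorted cells, with a median of -1.02. The type IV collagen gene Col4a1, whose product MMP2 and MMP9 cut, was at 327 FPKM in control sorted cells, 373 after 6-OHDA, 23.5 in control colonies and 22.4 in SP colonies. Fibronectin, Fn1, was at 19.6, 43.2, 327 and 255 FPKM in the same order. After 6-OHDA, 2 of 13 were higher and 0 lower (median 0.14). With SP, 3 of 12 were higher and 3 lower (median -0.09), with the laminin gene Lama3 (102 to 191 FPKM) among the higher ones. Over all genes 30.7% were higher and 13.2% lower in colonies (median 0.45). These shares were 15.8% and 8.35% after 6-OHDA (median 0.06), and 11.7% and 19.8% with SP (median -0.07).

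Genes with the profile nearest to a member over the 4 libraries were sought for the 3 members of widest range, in a pool of 12282 genes averaging 1 FPKM or more. Nearness was the root mean square distance of log2(FPKM + 1) after each gene's own mean was subtracted. For Plaur, with a range of 4.85, the nearest were Ttc9 at a distance of 0.26, Ackr3 at 0.27 and Il2rg at 0.29. Ackr3, an atypical chemokine receptor gene, was at 113 FPKM in control sorted cells, 97.6 after 6-OHDA, 5.27 in control colonies and 7.40 in SP colonies, a steep drop in colonies like that of Plaur. For Mmp2 the nearest were the matrix proteoglycan gene Prelp at 0.05, Tmtc1 at 0.06 and Pde4d, a cAMP phosphodiesterase gene, at 0.06. Prelp was at 123, 88.7, 40.1 and 25.4 FPKM, in steps close to those of Mmp2. For Mmp3 the nearest were Hacd3 at 0.02, AW146154 at 0.03 and Uap1l1 at 0.03. These distances rest on 4 values per gene.

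RefSeq promoter windows, from 250 bases before to 50 bases after an annotated start in GRCm38.p6, were matched for 6 of the 9 genes, Mmp3, Mmp14, Timp1, Timp2, Timp3 and Plaur; Mmp2, Mmp9 and Plau are given by name only. They were searched on both strands for TGACTCA, the textbook AP-1 motif, whose reverse complement is TGAGTCA, since MMP and urokinase system genes are known AP-1 targets. The letters were found in the windows of 2 of the 6 genes, Mmp3 and Plaur, and in 1709 of all 32851 windows of 300 bases (5.20%). The sequences around the motif are shown for these 2 genes, with the motif in capitals. A relation between the motif and the levels of the genes was not tested. The Mmp3 stretch is chr9:7445749-7445809 (plus strand), where the motif begins 46 bases before the start, and the Plaur stretch is chr7:24462387-24462447 (plus strand), where it begins 69 bases before the start its window is set on. That start, at position 24462483, lies 1546 bases inside the span given above for Plaur, so the motif is within the annotated gene; the other 5 windows are set on the outer start of their gene.
Mmp3: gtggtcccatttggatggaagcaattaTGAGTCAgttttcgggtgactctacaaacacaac
Plaur: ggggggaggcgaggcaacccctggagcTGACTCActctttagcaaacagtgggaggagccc
A match describes the letters only; binding was not measured in these libraries.

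Markers of other cell types moved with several of these results. For the marker counts here and below, the shares over all genes were 15.8% higher and 8.35% lower after 6-OHDA. They were 11.7% and 19.8% with SP, and 30.7% and 13.2% in colonies against sorted cells. The marker counts were not tested against these shares. Endothelial markers were high in sorted cells and nearly absent from colonies: the 8 genes summed to 320 FPKM in control sorted cells, 316 after 6-OHDA, 3.59 in control colonies and 5.44 in SP colonies. In colonies 8 of 8 were lower, most of which passed the filter only through the sorted cells, and 2 of 8 were higher after 6-OHDA. The most abundant in the sorted cells was Pecam1, at 107 and 93.0 FPKM, although the sort stained cells for its product CD31. None of the 3 defining markers was at 0 in any library, but Cdh5 and Kdr were at or below 0.12 FPKM in the colonies. Pericyte markers, 6 genes, summed to 40.4, 48.7, 24.7 and 18.7 FPKM in the same order, with 4 of 5 compared lower and 1 higher, Notch3, in colonies, 1 of 6 higher after 6-OHDA and 2 of 2 lower with SP. The most abundant were Rgs5 in the sorted cells and Notch3 in the colonies, and none of the 3 defining markers was at 0. The part of these cells in the higher Plaur and Mmp2 of sorted cells was not tested.

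Fibroblast markers, 10 genes, summed to 216 FPKM in control sorted cells, 443 after 6-OHDA, 46.3 in control colonies and 27.7 in SP colonies. Dcn was the most abundant in the sorted cells, at 115 and 135 FPKM, Col1a2 in control colonies at 20.6 and Ly6c1 in SP colonies at 13.9, and none of the 4 defining markers was at 0. Of these genes 8 of 10 were higher after 6-OHDA, 5 of 7 were lower and 1 higher with SP, and 6 of 9 were lower and 1 higher in colonies against sorted cells. Over all genes 15.8% were higher and 8.35% lower after 6-OHDA, 11.7% and 19.8% with SP, and 30.7% and 13.2% in colonies. Lum at 0.33 and Dpt at 0.91 FPKM in control colonies passed the filter only through the sorted cells. Col3a1, at 0.46 FPKM in SP colonies, passed it there only through control colonies. The direction of these calls follows from the filter. Mmp2 and Timp3 were thus lower after 6-OHDA while most fibroblast markers were higher, and with SP the MMP genes and most fibroblast markers were lower together. The part of fibroblasts in these results was not tested.

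The 6-OHDA library stood apart by transcripts of salivary gland secretory genes. Of 14 such genes 11 were compared, nearly all of which passed the filter only through the 6-OHDA library, so their higher calls follow from it. The 14 genes summed to 16188 FPKM, or 3.13% of the 6-OHDA library, against 1.87 in its control, 1.36 in control colonies and 1.64 in SP colonies. Bpifa2 was the most abundant, at 7277 FPKM; the 3 defining markers Bpifa2, Smr3a and Dcpp1 were all at 0 in control sorted cells and in SP colonies, and Smr3a and Dcpp1 were at 0 in control colonies. When the libraries were rescaled without these genes, 2 of the 9 members were still past the threshold after 6-OHDA, Mmp2 and Timp3. Plaur was then just inside it at -0.29, and at -0.34 when rescaled to the same sum with these genes kept.

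Basal markers, 10 genes, summed to 10171 FPKM in control sorted cells, 9121 after 6-OHDA, 6525 in control colonies and 14412 in SP colonies; 7 of 10 were higher and 1 was lower with SP, and 5 of 10 were lower in colonies. After 6-OHDA, 1 of 10 was higher and 2 were lower. Luminal markers, 10 genes, summed to 1422, 1288, 1928 and 1847 FPKM, with 0 higher and 3 of 9 lower after 6-OHDA, 0 higher and 4 of 10 lower with SP, and 3 of 10 higher in colonies. None of the defining basal or luminal markers was at 0. The share of these shifts in the values of the 9 genes was not tested.

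Leukocyte markers other than S100a8 were low, and the sort also stained cells for the leukocyte protein CD45. The 10 markers summed to 13.9 FPKM in control sorted cells and 13.2 after 6-OHDA, where Cd68 was the most abundant, and to 34.5 in control colonies and 129 in SP colonies, where nearly all came from S100a8, a gene that keratinocytes also express. The pan-leukocyte marker Ptprc was at 0.77 and 0.47 FPKM in the sorted cells and at 0 in both colony libraries, and Cd3e was at 0 in all but control sorted cells. Csf1r was at 0 in control colonies. Of the leukocyte markers compared, 0 of 4 were called after 6-OHDA, 1 of 2 was higher with SP, S100a8, and 1 of 4 was higher and 2 were lower in colonies. The part of leukocytes in the values of the 9 genes was not tested. Adipocyte markers, 6 genes, summed to 8.10, 12.5, 9.63 and 1.02 FPKM, with Plin1 at 0 in SP colonies and Lpl or Pparg the most abundant. Of those compared, 2 of 2 were higher after 6-OHDA, 1 of 1 was lower with SP and 1 of 2 was lower in colonies.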

How the data were processed

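The authors deposited FPKM values with 2 decimals for 17630 genes in each of 4 libraries. The submitters' processing notes name the build mm10 (GRCm38), Bowtie2, RSEM 1.3.1 and DESeq2 1.4.5, and the labels name a DNBSEQ library of mRNA. Gene numbers were matched to RefSeq symbols of GRCm38.p6, which gave names for 17512 genes; the other 118 stayed in the comparisons. FPKM sums were 508071 in control sorted cells, 517504 in 6-OHDA sorted cells, 577631 in control colonies and 588202 in SP colonies.

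Differences of log2(FPKM + 1) were taken between 2 libraries at a time. No count test was run, since the values are not counts, and no p-value is given. FPKM values move in steps of 1 fragment, but fits of these steps to genes with 1 transcript in GENCODE M21 did not settle the depth. The best step over 16 settings ranged from 4.16 to 114.8 fragments for 1 FPKM on 1 kilobase, and the highest score in each library was between 0.31 and 0.43 of 1. The depth is therefore unknown here and no counting interval is given.

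The members and the other gene lists were chosen with earlier results of these data known. The genes named are the 9 members; of every other list the most abundant gene, the defining markers and up to 4 genes with the largest rise or fall past the threshold per comparison, not all of which are reported here; and the 3 nearest profiles of 3 members. Genes overlapping a member were looked up in GENCODE M21. The alternatives were other pseudocounts, filters, scalings and thresholds. The functions were tested on simulated data. Python 3.11.15, numpy 2.4.6, pandas 2.3.3 and matplotlib 3.10.9 were used.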

Additional observations from a re-analysis of the deposited data

How the results depend on the processing

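Each count of the 9 genes was recomputed with pseudocounts of 0.1 and 5, with no filter and a mean FPKM of at least 5, with 4 other scalings and with another threshold. At a threshold of 1, 0 of the 9 genes were called after 6-OHDA in place of 3, and 1 (Plaur) with SP in place of 7. At a threshold of 0.3, 7 were called in colonies against sorted cells in place of 4. Under the other alternatives the counts were 2 or 3, 7, and 3 or 4. Among 162 values of single genes under the other pseudocounts and scalings, 157 kept their side of the threshold, 5 fell within it (Plaur after 6-OHDA and Mmp9 in colonies against sorted cells) and 0 called values changed sign.

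Over all genes compared, 2838 were called after 6-OHDA, 3736 with SP and 5380 in colonies against sorted cells. With a pseudocount of 5 these counts were 1343, 2232 and 3046, and the stricter filter left 1705 after 6-OHDA. At the other threshold they were 229, 395 and 10069; with SP, 237 were then higher and 158 lower, against 1385 higher and 2351 lower at 0.3, so the larger side changed, and after 6-OHDA the share of higher genes was 53.7%. Scaling by the median ratio moved the share of higher genes among all genes called from 65.4% to 50.5% after 6-OHDA, from 37.1% to 49.8% with SP and from 69.9% to 45.7% in colonies against sorted cells. Quantile normalization gave 47.4%, 47.0% and 52.4%. With 1 library per group and an unknown depth, neither biological spread nor counting error can be given for any value.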
